A study of Mus musculus with 13 samples.

Results

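Beta cells sorted from mouse pancreatic islets were compared with the remaining islet cells of the same kind of control mouse. The members were the genes that passed an expression filter in the 7 control-labelled libraries: 19014 of 55421 genes in the count table. All 7 libraries, of 13 in the series, came from C57BL/6 mice aged 10 to 20 weeks with the genotype Txnrd1 +/+; Ins1.Cre/+; Rosa26.mTmG/mTmG. Both fractions thus carried the Cre recombinase, which is driven by the insulin gene Ins1, and the mTmG reporter, in which membrane tdTomato gives way to membrane GFP once Cre has acted. Control beta cells were the live GFP-positive cells (4 libraries, replicates 1 to 4) and control non-beta cells were the live Tomato-positive cells (3 libraries, replicates 2 to 4). The islets had spent a night in culture at 5.5 mM glucose before they were dispersed with trypsin and sorted. The remaining 6 libraries, of Txnrd1 fl/fl mice with the same Cre and reporter, were not part of this comparison. A Tomato-positive cell is defined by the absence of recombination, so it can be any islet cell in which Ins1.Cre did not act, and the labels do not say that each library came from its own animal.

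A beta cell takes up glucose, burns it in mitochondria and, as ATP rises, closes a potassium channel, which opens calcium channels and releases insulin granules. The other endocrine cells of the islet are alpha cells, which make glucagon, delta cells, which make somatostatin, and gamma cells, which make pancreatic polypeptide. Blood vessels, macrophages, connective tissue and nerve-associated cells lie among them, and exocrine acinar or duct cells can remain after isolation. In the mature beta cell a set of genes that most other cells use, called disallowed genes, is kept silent.

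The promoters of 4 hormone genes and of the prohormone convertase Pcsk1, all of which differed between the fractions, are shown first, because the same short motifs are known from both beta-cell and non-beta-cell hormone genes. Each line gives the 250 bases before the start of the gene in RefSeq (build GRCm38.p6), read 5′ to 3′ on the gene's own strand. Capitals mark 3 motifs: TAAT, the core bound by homeodomain factors such as Pdx1 and Isl1, with its reverse ATTA; the E-box CATCTG, with its reverse CAGATG; and the cyclic AMP response element TGACGTCA, which reads the same on both strands.
Ins1: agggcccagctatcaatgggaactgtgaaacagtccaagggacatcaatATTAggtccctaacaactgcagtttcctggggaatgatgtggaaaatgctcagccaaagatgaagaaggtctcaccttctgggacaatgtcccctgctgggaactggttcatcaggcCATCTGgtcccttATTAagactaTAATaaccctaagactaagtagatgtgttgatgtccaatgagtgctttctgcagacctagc
Iapp: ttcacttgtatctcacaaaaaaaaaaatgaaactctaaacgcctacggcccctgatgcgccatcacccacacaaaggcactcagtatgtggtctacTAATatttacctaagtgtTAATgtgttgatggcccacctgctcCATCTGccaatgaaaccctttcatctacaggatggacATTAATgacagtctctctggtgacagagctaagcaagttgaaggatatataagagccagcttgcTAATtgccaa
Pcsk1: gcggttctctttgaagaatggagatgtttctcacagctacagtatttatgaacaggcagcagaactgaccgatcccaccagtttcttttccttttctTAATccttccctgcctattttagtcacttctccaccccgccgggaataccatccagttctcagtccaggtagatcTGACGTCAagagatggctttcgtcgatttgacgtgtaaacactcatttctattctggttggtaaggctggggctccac
Gcg: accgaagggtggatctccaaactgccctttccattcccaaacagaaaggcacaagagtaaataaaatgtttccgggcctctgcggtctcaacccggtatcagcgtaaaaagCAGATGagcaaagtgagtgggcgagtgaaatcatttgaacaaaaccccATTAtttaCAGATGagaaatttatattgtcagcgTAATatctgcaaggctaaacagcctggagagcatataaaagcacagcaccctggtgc
Sst: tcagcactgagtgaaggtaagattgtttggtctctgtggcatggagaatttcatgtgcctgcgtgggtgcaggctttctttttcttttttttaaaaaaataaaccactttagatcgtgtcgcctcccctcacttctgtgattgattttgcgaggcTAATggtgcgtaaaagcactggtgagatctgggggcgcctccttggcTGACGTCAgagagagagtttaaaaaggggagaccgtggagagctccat
These windows are chr19:52264047-52264296 on the + strand, chr6:142298175-142298424 on the + strand, chr13:75089607-75089856 on the + strand, chr2:62483654-62483903 on the − strand and chr16:23890845-23891094 on the − strand. The Ins1 window held 3 TAAT and 1 CATCTG match, the Iapp window 5 and 1, and the Gcg window 2 and 2. Overlapping matches were counted, as in ATTAAT of the Iapp window. Pcsk1, whose product starts the cutting of proinsulin, and Sst, which encodes somatostatin, each had 1 TGACGTCA and 1 TAAT match and no CATCTG match. The TGACGTCA match began at position −78 from the start of Pcsk1 and at −48 from that of Sst.

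All 3 motifs also stood before other genes. TAAT on either strand stood in 54.9% of all 32851 windows of that length, from 27025 genes, CATCTG in 14.4% and TGACGTCA in 1.5%. Genes at least 2-fold higher in beta cells by the test given below had TAAT in 41.9%, CATCTG in 12.7% and TGACGTCA in 1.7% of 1489 windows. Genes at least 2-fold lower in beta cells had them in 44.7%, 12.6% and 1.4% of 2830 windows. The windows of all genes tested held them in 41.3%, 10.7% and 2.5% of 15651 windows. These shares were not tested against each other.

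Hormone transcripts took a similar share of the counts in both fractions, but from different hormone genes. Mice have 2 insulin genes, of which Ins2 gave 22.6, 22.3, 21.2 and 20.2% of all counts in the 4 beta libraries and 0.280, 0.689 and 0.322% in the 3 non-beta libraries. Gcg, the glucagon gene, gave 0.0295, 0.0404, 0.0682 and 0.0678% in beta libraries and 19.5, 15.7 and 19.2% in non-beta libraries. No beta library came near a non-beta library in either gene. In all, 7 hormone genes (Ins1, Ins2, Iapp, Gcg, Sst, Ppy and Pyy) took 25.2 to 28.3% of the counts of a beta library and 25.0 to 26.5% of a non-beta library. Ins1 lies on chromosome 19 (52264297 to 52265476, + strand, GRCm38), Ins2 on chromosome 7 (142678656 to 142743381, − strand), Gcg on chromosome 2 (62474530 to 62483650, − strand) and Sst on chromosome 16 (23889573 to 23890958, − strand).

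**Figure D1:**
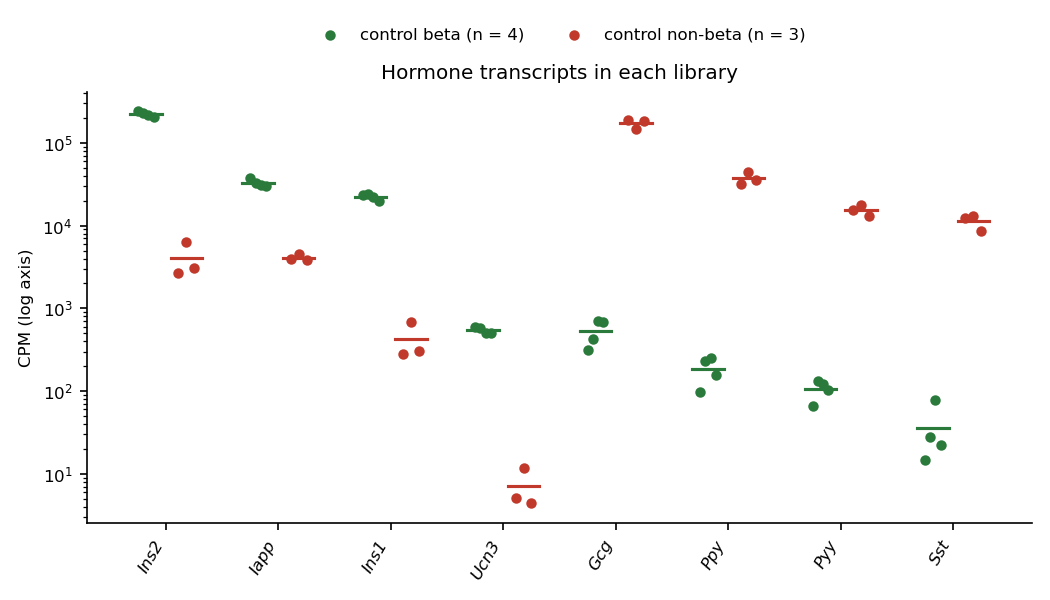
CPM (TMM-scaled) of 8 islet hormone genes on a log axis, with each library as a point and the mean as a bar, control beta cells (n = 4) left of control non-beta cells (n = 3). Ins2, Iapp, Ins1 and Ucn3 were higher in every beta library, and Gcg, Ppy, Pyy and Sst were lower in every beta library.

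Levels are given from here on in CPM (counts-per-million values) after TMM scaling, which evens out the composition of the libraries. Ins1 stood at 23299, 24478, 22364 and 19837 CPM in beta libraries and at 282, 693 and 306 CPM in non-beta libraries, a 52.7-fold difference (log2 fold change 5.72, SE 0.37, edgeR adjusted p = 1.21e-06; SE is the standard error of the log2 fold change, and adjusted p is that of edgeR's quasi-likelihood test after Benjamini-Hochberg adjustment over all genes tested). Ins2 was 55.2-fold higher (log2 fold change 5.79, SE 0.37, edgeR adjusted p = 1.13e-06). Reads of the near-identical pair Ins1 and Ins2 may be split between them, or left out, in a way that the sources used here do not give. The values of each gene are therefore uncertain, and so is their sum if such reads were left out. Iapp, which encodes the amyloid peptide released with insulin, averaged 32870.3 ± 3298 CPM in beta cells and 4108 ± 341 CPM in non-beta cells (log2 fold change 3.00, SE 0.15, edgeR adjusted p = 2.40e-07); here and below the value after ± is the SD over n = 4 beta or n = 3 non-beta libraries. Ucn3, urocortin 3, a peptide by which mature beta cells act on delta cells, stood at 594, 576, 499.5 and 509 CPM in beta libraries and at 5.16, 11.7 and 4.39 CPM in non-beta libraries. That was a 77.0-fold difference (log2 fold change 6.27, SE 0.35, edgeR adjusted p = 5.51e-07).

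Transcripts of the other islet hormones were lower in beta cells, each by more than 100-fold. Gcg had 316, 423, 696 and 691 CPM in beta libraries and 187304, 146378 and 183151 CPM in non-beta libraries, 324-fold lower (log2 fold change −8.34, SE 0.36, edgeR adjusted p = 1.17e-07). Sst stood at 14.8, 27.9, 77.2 and 22.1 CPM in beta libraries, with replicate 3 the highest, and at 12291, 13227 and 8515 CPM in non-beta libraries (320.0-fold lower; log2 fold change −8.32, SE 0.61, edgeR adjusted p = 2.73e-06). Without beta replicate 3 the log2 fold change of Sst was −9.04. Ppy, pancreatic polypeptide, was 202-fold lower (log2 fold change −7.66, SE 0.36, edgeR adjusted p = 2.04e-07) and Pyy, peptide YY, was 146-fold lower (log2 fold change −7.19, edgeR adjusted p = 6.49e-08). Every beta library lay below every non-beta library for all of these. Ghrl, the ghrelin gene of epsilon cells, did not pass the expression filter: it had 0.0326, 0.0643, 0.0356 and 0.0587 CPM in beta libraries and 0.139, 9.21 and 33.5 CPM in non-beta libraries, where replicates 3 and 4 were high and replicate 2 was not.

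The defining genes of each fraction were low in the other fraction. Ins2 in a non-beta library was 1.20, 2.86 and 1.37% of the beta mean, and Ins1 was 1.26, 3.08 and 1.36% of it. G6pc2 (1.31 to 2.67%), Slc2a2 (1.46 to 2.83%) and Ucn3 (0.805 to 2.14%) lay in the same range, and non-beta replicate 3 was the highest for each of these 5 genes. Other genes linked to beta cells kept a larger share in non-beta libraries: Iapp 11.7 to 13.7%, Pdx1 18.7 to 27.7% and Slc30a8 27.4 to 30.3% of the beta mean. In the other direction, Gcg in beta libraries was 0.184 to 0.404% of the non-beta mean and Sst 0.131 to 0.681%, while the alpha-cell gene Ttr kept more (12.9 to 15.5%). In sorted bulk samples a fraction with fewer cells of a type and a fraction with less RNA of that type per cell cannot be told apart.

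Across the genome 4723 genes were higher and 5440 lower in beta cells than in non-beta cells, 24.8% and 28.6% of the 19014 genes tested (53.5% in either direction; edgeR quasi-likelihood test, Benjamini-Hochberg adjusted p below 0.05). With a difference of at least 2-fold as well, 1891 genes (9.95%) were higher and 3217 (16.9%) lower. Among the genes kept by the filter, large differences were mostly lower in beta cells. At 10-fold or more 239 genes were higher and 1647 lower, and at 100-fold or more 14 were higher and 769 lower. These counts use fitted folds. Of the genes tested, 279 had no count in beta cells and 7 had none in non-beta cells. Fitted folds of such genes can exceed the lower bounds used below: Cckar was fitted at 290.6-fold lower and bounded at 46.0-fold. The count of genes lower by 100-fold or more is therefore uncertain. In all, 665 tested genes had fewer than 4 counts in beta cells, so they passed the filter through non-beta cells alone. How far large differences lean to the lower side thus depends on which genes are kept. With a stricter filter (at least 1 CPM in 3 libraries) 1561 genes were higher and 2461 lower by at least 2-fold. Every beta library lay above every non-beta library for 26.7% of genes and below for 29.9%. The median log2 fold change over all genes tested was −0.02.

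**Figure D2:**
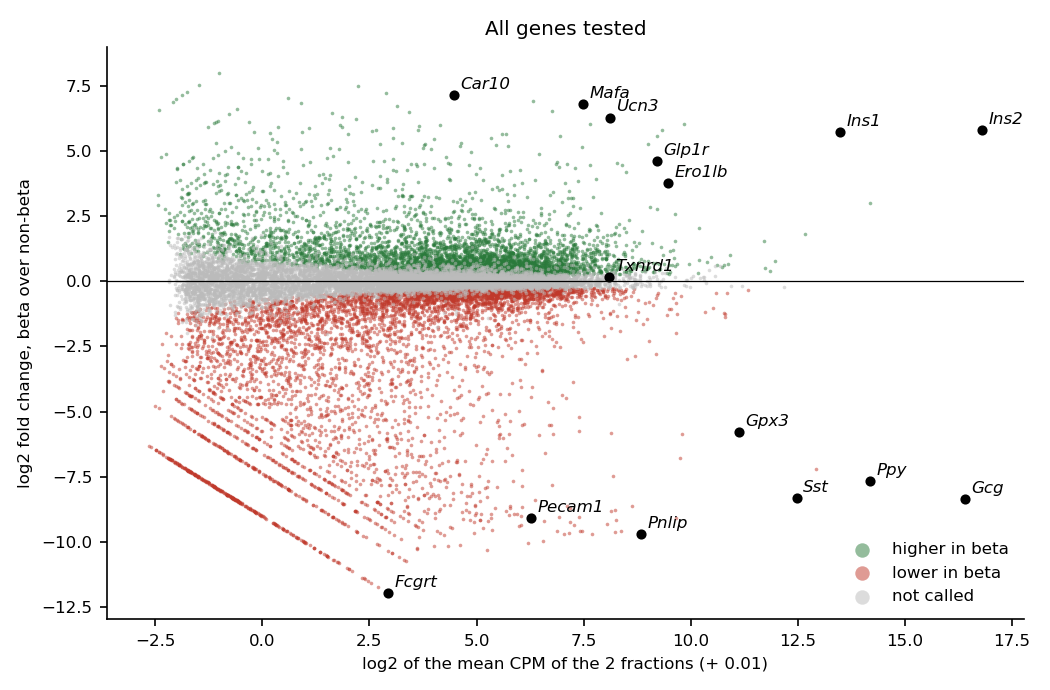
Log2 fold change of control beta over control non-beta cells against the log2 of the mean CPM of the fractions (0.01 added), 1 point for each of the 19014 genes tested. Green genes were higher and red genes lower in beta cells, and the straight lines of red points at the lower left are genes with no or few counts in beta cells.

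The 7 libraries held 28687466 to 34758026 counts, and between 24007 and 26897 genes had at least 1 count. Libraries of a fraction were alike (Spearman correlation over genes 0.991 to 0.995 among beta and 0.975 to 0.989 among non-beta libraries), and lower between fractions (0.856 to 0.876). Mitochondrially encoded transcripts took 0.228 to 0.285% of the counts in beta libraries and 0.0866 to 0.105% in non-beta libraries. Txnrd1, the gene that the series deletes, encodes the cytosolic thioredoxin reductase and is intact by label in both fractions. It stood at 275, 271, 291 and 321 CPM in beta libraries and at 256, 250.2 and 267 CPM in non-beta libraries, and the difference did not pass the test (log2 fold change 0.17, SE 0.09, edgeR adjusted p = 0.132). Scaled over all 13 libraries, Txnrd1 stood at 605, 599 and 540.0 CPM in the beta libraries labelled knockout. Those labelled control had 277, 273, 293 and 324 CPM, so the knockout-labelled libraries were higher, not lower. Counts over a whole gene may not show the loss of some of its exons, so these values do not test the genotype labels. "Control" stands here for what the labels say.

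Among the genes abundant in beta cells (at least 20 CPM), those with the largest differences joined transcription factors, granule proteins and enzymes. Car10, a carbonic anhydrase-related protein, stood at 44.3, 44.9, 39.4 and 47.1 CPM in beta libraries and 0.139, 0.319 and 0.481 CPM in non-beta libraries (140.4-fold; log2 fold change 7.13, SE 0.25, edgeR adjusted p = 4.78e-08). Msln, the surface glycoprotein mesothelin, had 118, 277, 107 and 135 CPM in beta and 2.00, 0.639 and 1.35 CPM in non-beta libraries. Beta replicate 2 was far above the other beta libraries there, and all 4 lay far above the non-beta libraries (log2 fold change 6.89, SE 0.50, edgeR adjusted p = 2.59e-06). Then came Mafa, a factor that switches on the insulin genes, Tmem215, a membrane protein (92.1-fold), and Mcoln3, a lysosomal cation channel (89.7-fold). Ucn3, Sytl4, Mnx1, Olfm4, G6pc2, Kcnj12, Ins2, Ins1 and Gad1 followed, with log2 fold changes of 5.65 to 6.27. Prss53, a serine protease, averaged 1807 ± 158 CPM in beta cells and 27.7 ± 6.64 CPM in non-beta cells, but 84.0% of its exon bases also belong to another annotated gene, so its count is uncertain.

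Among genes of at least 20 CPM in non-beta cells, the 15 that fell furthest were mostly known from vessels, macrophages and exocrine cells. Sox7, a factor of endothelial cells, had 1 count in the 4 beta libraries together and 20.1, 16.8 and 24.4 CPM in the non-beta libraries, a ratio of non-beta to beta of 2530 (95% interval for counting error 453 to 99800). Cav1, which shapes caveolae, had 2 counts in beta cells (ratio 1510, interval 417 to 12500), and Flt4, a vascular growth factor receptor, also had 2 (ratio 1490, interval 411 to 12300). Adamts1, a matrix protease, and Nid1, a basement membrane protein, were 1252- and 1124-fold lower by the fitted values. Esm1, S1pr3, Srgn, Slc2a3 and C1qc were among the 15 lowest as well, as were the exocrine genes Reg1, Cela3b, Pnlip, Try4 and Gp2. Of these 15 genes, Pnlip had the highest level in any beta library, 1.602 CPM.

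Beta-cell transcription factors were higher in beta cells as a group, though not all of them. Of 23 tested members 19 were higher (82.6%, against 24.8% of all genes tested) and 2 lower (8.70%, against 28.6%). The median log2 fold change was 0.65, against −0.02 over all genes tested. Mafa stood at 332, 389, 331 and 375 CPM in beta and 2.30, 2.53 and 4.93 CPM in non-beta libraries, a 109.9-fold difference (log2 fold change 6.78, SE 0.28, edgeR adjusted p = 8.87e-08). Mnx1, a homeobox factor, had 31.1, 35.7, 34.0 and 38.9 CPM in beta and 0.499, 0.610 and 0.541 CPM in non-beta libraries (log2 fold change 5.98, SE 0.16, edgeR adjusted p = 2.46e-08). For both genes the fractions did not overlap and all non-beta libraries were close to 0 when set beside the beta libraries. Ovol2, a zinc finger factor, was 59.2-fold higher, at 16.2 ± 4.58 CPM in beta cells and 0.271 ± 0.0524 CPM in non-beta cells (log2 fold change 5.89, SE 0.32, edgeR adjusted p = 4.29e-07).

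Nkx6-1, which keeps beta cells from taking on other fates, averaged 88.3 ± 5.37 CPM in beta cells and 7.69 ± 2.51 CPM in non-beta cells (log2 fold change 3.52, SE 0.20, edgeR adjusted p = 6.21e-07). Pdx1, which has roles in both beta and delta cells, stood at 135, 149, 130.0 and 136 CPM in beta libraries and 33.4, 38.0 and 25.7 CPM in non-beta libraries (log2 fold change 2.09, SE 0.13, edgeR adjusted p = 1.23e-06). Bhlha15 (4.82-fold), Insm1 (2.80-fold), Glis3 (2.71-fold), Tshz1 (2.67-fold) and Nkx2-2 (2.48-fold) were higher too, with no overlap between fractions. Among factors that all islet endocrine cells share, Pax6 was 1.56-fold, Neurod1 1.56-fold, Rfx6 1.33-fold and St18 1.35-fold higher. Myt1 (log2 fold change 0.57), Rfx3 (0.50), Esrrg (0.89) and Ldb1 (0.27) passed the test with edgeR adjusted p of 0.0137 to 0.0465. The calls of Esrrg, Ldb1 and Rfx3 were lost without non-beta replicate 2, where their edgeR adjusted p was 0.0886, 0.0882 and 0.0748. Esrrg also lost its call without any of the other libraries except non-beta replicate 3 (0.0540 to 0.0993), Ldb1 without beta replicate 1, 2 or 3 or non-beta replicate 3 (0.0594 to 0.0861) and Rfx3 without beta replicate 3 (0.0532).

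Isl1, a factor needed in every islet cell type, was lower in beta cells. It stood at 152, 144, 168 and 159 CPM in beta libraries and at 279.9, 373 and 219 CPM in non-beta libraries (log2 fold change −0.90, SE 0.16, edgeR adjusted p = 0.000876), and all beta libraries were below all non-beta libraries. Prox1, known from pancreatic progenitors, was also lower, at 17.2 ± 0.887 CPM in beta cells and 41.1 ± 3.00 CPM in non-beta cells (log2 fold change −1.26, SE 0.09, edgeR adjusted p = 3.04e-06). Foxa2, a factor that opens chromatin in endoderm (87.7 ± 3.69 CPM in beta cells and 95.1 ± 0.996 CPM in non-beta cells) and Hnf4a did not pass the test (edgeR adjusted p = 0.203 and 0.181). Without non-beta replicate 4, which had the highest Hnf4a level of that fraction, Hnf4a passed with a log2 fold change of 1.16 (edgeR adjusted p = 0.000138). Pax4 had no count in any library and Foxa1 did not pass the expression filter.

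Alpha-cell genes were lower in beta cells in 16 of 20 cases (80%, against 28.6% of all genes tested), 15 of them at least 2-fold. In this list 3 were higher (15%, against 24.8%), and the median log2 fold change was −3.83. Irx1, a transcription factor of alpha cells, had 0.0651, 0, 0.0356 and 0.0293 CPM in beta libraries and 24.3, 22.9 and 33.1 CPM in non-beta libraries (log2 fold change −9.53, SE 0.33, edgeR adjusted p = 4.03e-08). The beta libraries were at or near 0 for this gene, and the fractions did not overlap. Etv1 was 24.9-fold, Gc, the vitamin D-binding protein, 36.6-fold, Irx2 39.9-fold and Ndst4 67.8-fold lower.

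Pou3f4 (log2 fold change −5.76), Slc38a5 (−4.37), Smarca1 (−3.29), Ttr (−2.86), Wnk3 (−2.65), Cltrn (−1.43) and Kctd8 (−0.89) were lower as well. Members that went the other way were Dpp4, Slc7a2 and Dach1. Dpp4, the peptidase that cuts incretin hormones, had 120.0, 164, 104 and 126 CPM in beta libraries and 54.0, 52.0 and 50.9 CPM in non-beta libraries (log2 fold change 1.30, SE 0.14, edgeR adjusted p = 4.76e-05). Slc7a2, a carrier of cationic amino acids, stood at 84.7, 82.9, 80.3 and 77.7 CPM in beta libraries and 37.0, 42.2 and 45.9 CPM in non-beta libraries (log2 fold change 0.96, SE 0.09, edgeR adjusted p = 1.77e-05), with no overlap. Dach1 was 1.70-fold higher at low levels (9.25 ± 1.20 CPM in beta cells and 5.43 ± 0.644 CPM in non-beta cells). Sphkap did not pass the test (log2 fold change 0.13, edgeR adjusted p = 0.290).

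Delta-cell genes were lower in all 9 tested cases, against 28.6% of all genes tested, with a median log2 fold change of −6.76. Hhex, the factor that maintains delta cells, stood at 0.293, 0.129, 0.676 and 0.381 CPM in beta libraries and 97.5, 96.4 and 70.4 CPM in non-beta libraries (log2 fold change −7.90, SE 0.29, edgeR adjusted p = 6.06e-08). Rbp4, a retinol carrier, averaged 15.8 ± 5.54 CPM in beta cells and 1719 ± 235 CPM in non-beta cells (log2 fold change −6.76, SE 0.29, edgeR adjusted p = 1.17e-07). Ptprz1 was 217-fold lower, with a log2 fold change of −7.76, or −8.74 without beta replicate 2. Crhr2, the receptor on delta cells that urocortin 3 acts on, was 36.2-fold and Ffar4, a receptor for long-chain fatty acids, 20.2-fold lower. Ghsr, the ghrelin receptor, had 2 counts in the beta libraries together (ratio 418, interval 115 to 3460). Shisal2b differed least (49.2 ± 7.42 CPM in beta cells and 87.7 ± 26.4 CPM in non-beta cells; log2 fold change −0.83, SE 0.19, edgeR adjusted p = 0.00508). The 4 tested genes of gamma and epsilon cells were all lower, against 28.6% of all genes tested. Among them Sertm1 had no count in beta cells and was at least 51.9-fold lower, counted against 3 counts over the 4 libraries.

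Genes of glucose sensing and insulin secretion were higher in beta cells in 21 of 27 cases (77.8%, against 24.8% of all genes tested). Those lower were 3 (11.1%, against 28.6%), and the median log2 fold change was 0.92. G6pc2, the islet glucose-6-phosphatase, stood at 1288, 1256, 1221 and 1268 CPM in beta libraries and at 17.6, 33.7 and 16.4 CPM in non-beta libraries (55.8-fold; log2 fold change 5.80, SE 0.28, edgeR adjusted p = 2.29e-07). Slc2a2, the glucose transporter of mouse beta cells, had 248, 290.2, 194 and 229 CPM in beta and 4.96, 6.80 and 3.51 CPM in non-beta libraries (47.1-fold; log2 fold change 5.56, SE 0.25, edgeR adjusted p = 1.50e-07). Neither gene overlapped between fractions. Pcx, pyruvate carboxylase, which feeds pyruvate carbon into the citric acid cycle, had 251, 246, 259 and 299 CPM in beta and 10.9, 11.04 and 13.5 CPM in non-beta libraries (22.3-fold; log2 fold change 4.48, SE 0.13, edgeR adjusted p = 2.60e-08). Trpm5, a calcium-activated cation channel, was 29.5-fold higher (log2 fold change 4.88, SE 0.19, edgeR adjusted p = 8.15e-08).

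Of the subunits of the channel that closes when ATP rises, 1 of 2 passed the test. Abcc8, its sulfonylurea receptor subunit, averaged 1277 ± 59.6 CPM in beta cells and 1023 ± 68.3 CPM in non-beta cells (log2 fold change 0.32, SE 0.09, edgeR adjusted p = 0.0134). Kcnj11, its pore subunit, stood at 69.3, 60.8, 64.6 and 65.6 CPM in beta and 51.7, 41.0 and 64.1 CPM in non-beta libraries and did not pass the test (log2 fold change 0.32, SE 0.14, edgeR adjusted p = 0.0782). Non-beta replicate 4 reached into the beta range, and without it Kcnj11 passed (log2 fold change 0.49, edgeR adjusted p = 0.00307). Cacna1d, a pore subunit of L-type calcium channels, was 2.53-fold higher (edgeR adjusted p = 2.14e-05).

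On the exocytosis side Sytl4, the docking protein granuphilin, had 368, 419.7, 347 and 451 CPM in beta and 4.74, 8.13 and 5.32 CPM in non-beta libraries (65.4-fold; log2 fold change 6.03, SE 0.22, edgeR adjusted p = 5.77e-08). Rab3a, a GTPase of secretory vesicles, was 2.66-fold higher (log2 fold change 1.41, SE 0.11, edgeR adjusted p = 4.01e-06). Lower in beta cells were Stx1a, a membrane fusion protein, at 12.1 ± 0.741 CPM in beta cells and 28.6 ± 3.33 CPM in non-beta cells (log2 fold change −1.24, SE 0.11, edgeR adjusted p = 1.20e-05), and the adenylyl cyclases Adcy8 (log2 fold change −5.90) and Adcy5 (−2.98). Adcy8 stood at 0.163, 0.0643, 0.107 and 0.0293 CPM in beta and 7.46, 4.18 and 4.93 CPM in non-beta libraries. Rapgef4 and Unc13a did not pass the test (edgeR adjusted p = 0.108 and 0.347). Rapgef4 passed without non-beta replicate 3 (0.0320) and Unc13a without non-beta replicate 4 (0.000816). Kcnj11, Cacna1d and Rab3a, like Pcsk2, Vgf and some others below, were picked from the lists after their values were seen.

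**Figure D3:**
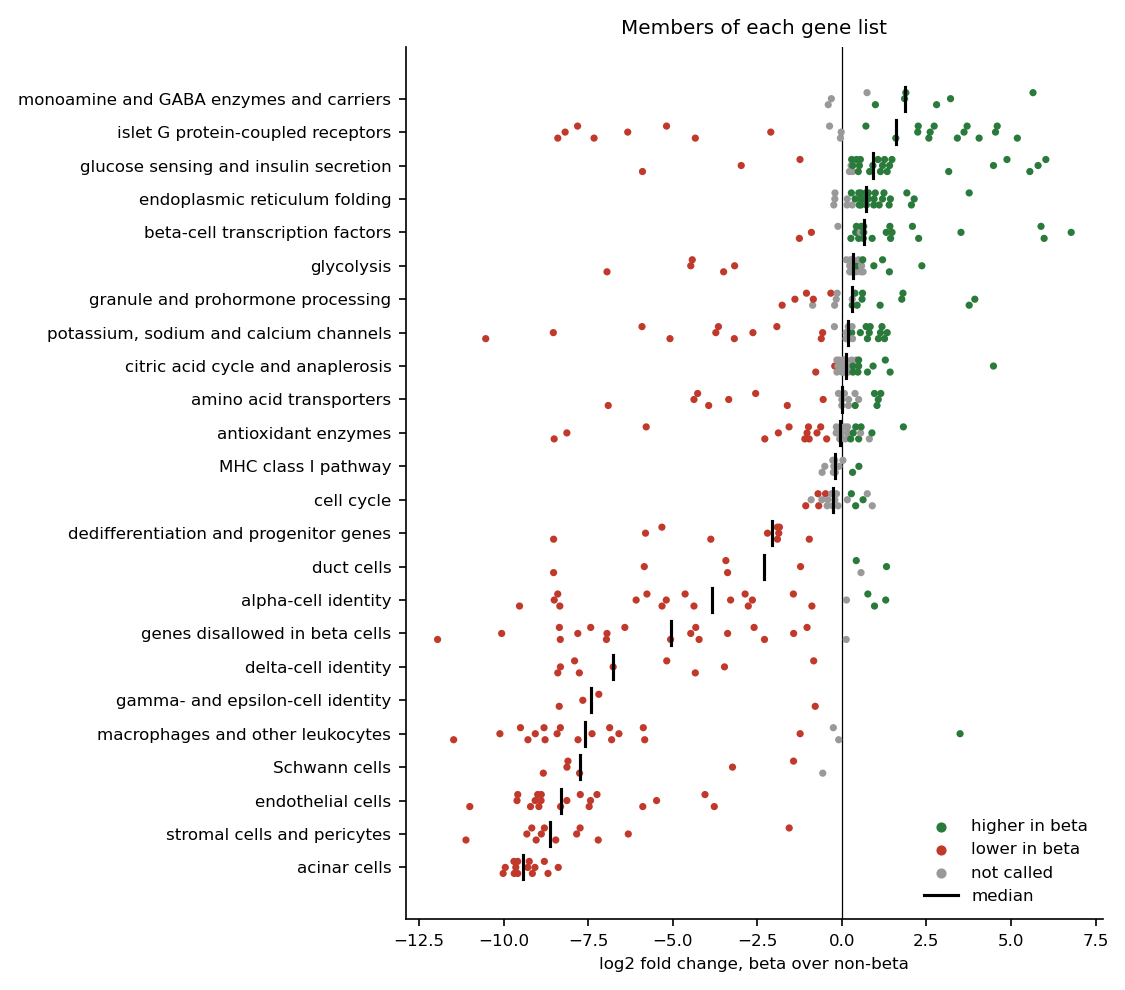
Log2 fold change, control beta over control non-beta cells, of every tested member of 24 gene lists, 1 point for each gene, with the median of the list as a black bar. Lists of beta-cell function lie mostly right of 0, those of other cell types and of disallowed genes lie mostly left of 0, and MHC class I and cell cycle genes lie around 0.

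Secretory granule genes went both ways. Of 20 tested 10 were higher (50%, against 24.8% of all genes tested) and 5 lower (25%, near the 28.6% of all genes). The median log2 fold change was 0.31. Pcsk1, the convertase that cuts proinsulin, stood at 388, 402, 383 and 486 CPM in beta and 25.6, 33.5 and 22.5 CPM in non-beta libraries (15.2-fold; log2 fold change 3.93, SE 0.17, edgeR adjusted p = 1.14e-07). Pcsk2, the convertase that also makes glucagon, was slightly lower, at 2273, 2378, 2041 and 2551 CPM in beta and 2879.9, 2505 and 3306 CPM in non-beta libraries, with the fractions overlapping (log2 fold change −0.33, SE 0.12, edgeR adjusted p = 0.0477). That call was lost without beta replicate 1, 2 or 3 or non-beta replicate 2 or 4 (edgeR adjusted p 0.0900 to 0.137). Chga, chromogranin A, had 10639, 10368, 8379 and 10858 CPM in beta and 3439, 1309.6 and 3882 CPM in non-beta libraries (log2 fold change 1.81, SE 0.32, edgeR adjusted p = 0.00108), with non-beta replicate 3 the lowest. Slc30a8, the zinc carrier that lets insulin crystallise, averaged 409.7 ± 68.1 CPM in beta cells and 120.0 ± 6.63 CPM in non-beta cells (log2 fold change 1.77, SE 0.14, edgeR adjusted p = 3.94e-06).

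Granule proteins that were lower in beta cells included Resp18, Pcsk1n, Scg5 and Vgf. Resp18 stood at 1038, 1031, 952 and 899 CPM in beta and 2638, 2750.2 and 2306 CPM in non-beta libraries (log2 fold change −1.39, SE 0.10, edgeR adjusted p = 2.76e-06). Pcsk1n, an inhibitor of Pcsk1, was 2.07-fold lower (log2 fold change −1.05, SE 0.11, edgeR adjusted p = 3.29e-05), and Scg5, the chaperone of Pcsk2 known as 7B2, 1.80-fold lower (log2 fold change −0.84, SE 0.10, edgeR adjusted p = 8.78e-05). Each of the 3 was lower in every beta library than in every non-beta library. Vgf, the precursor of several neuropeptides, had 29.9, 33.6, 37.1 and 55.7 CPM in beta and 115, 61.5 and 222 CPM in non-beta libraries (log2 fold change −1.77, SE 0.37, edgeR adjusted p = 0.00284). Without non-beta replicate 4, the highest, its log2 fold change was −1.18. Atp6v0a1, a proton pump subunit, was 2.19-fold higher. Chgb, Cpe, Furin, Ptprn and Pam did not pass the test (edgeR adjusted p = 0.326, 0.116, 0.712, 0.169 and 0.141). Pam, the enzyme that amidates peptides, varied widely within fractions (290.2, 345, 113 and 165 CPM in beta and 727, 199 and 320.0 CPM in non-beta libraries, replicate 2 the highest in both), and passed without non-beta replicate 3 (log2 fold change −1.20, edgeR adjusted p = 0.0371). Cpe and Ptprn passed without non-beta replicate 4 (edgeR adjusted p = 0.0145 and 0.001).

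Genes of protein folding in the endoplasmic reticulum were higher in beta cells in 24 of 30 cases (80%, against 24.8% of all genes tested). None was lower (against 28.6%), and the median log2 fold change was 0.72. Ero1lb, the beta-cell oxidase that makes disulfide bonds in proinsulin, stood at 1341, 1409, 1171 and 1347 CPM in beta and at 99.5, 91.5 and 99.7 CPM in non-beta libraries, 13.6-fold apart (log2 fold change 3.76, SE 0.11, edgeR adjusted p = 2.60e-08). Ero1l, the form found in most tissues, had 109, 150.1, 149 and 314 CPM in beta and 70.0, 64.4 and 118 CPM in non-beta libraries, and the fractions overlapped (log2 fold change 1.10, SE 0.35, edgeR adjusted p = 0.0249). Without non-beta replicate 2 or 3 the adjusted p of Ero1l was 0.0895 or 0.0684. Hspa5, the main chaperone of this compartment (BiP), averaged 5089 ± 129 CPM in beta cells and 2959 ± 449 CPM in non-beta cells (log2 fold change 0.78, SE 0.12, edgeR adjusted p = 0.000458). Hyou1 (4.40-fold), Calr (4.16-fold), Sdf2l1 (3.79-fold), Creld2 (2.70-fold), Sel1l (2.63-fold) and Dnajb11 (2.37-fold) were the other members with large differences. Manf, Pdia6, Pdia3 and P4hb were 1.94-, 1.92-, 1.58- and 1.47-fold higher. Hsp90b1, Canx and Ssr2 did not pass the test (edgeR adjusted p = 0.205, 0.182 and 0.191). Ssr2 was lower without non-beta replicate 4 (log2 fold change −0.34, edgeR adjusted p = 0.00961), and the count of lower members was then 3.

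Of 25 tested islet G protein-coupled receptors 14 were higher in beta cells (13 at least 2-fold) and 8 lower (all at least 2-fold), with a median log2 fold change of 1.59. The higher members were 56% of the list, against 24.8% of all genes tested. The lower ones were 32%, near the 28.6% of all genes. Glp1r, the receptor of the incretin GLP-1, stood at 1132, 1272, 1026 and 1121 CPM in beta and 47.8, 52.2 and 41.5 CPM in non-beta libraries (24.1-fold; log2 fold change 4.59, SE 0.13, edgeR adjusted p = 2.60e-08). Gcgr, the glucagon receptor, had 107, 122, 107 and 98.6 CPM in beta and 9.07, 7.93 and 8.02 CPM in non-beta libraries (13.02-fold; log2 fold change 3.70, SE 0.11, edgeR adjusted p = 2.60e-08). Gipr, the receptor of the incretin GIP, averaged 96.3 ± 19.2 CPM in beta cells and 14.5 ± 5.00 CPM in non-beta cells (log2 fold change 2.73, SE 0.24, edgeR adjusted p = 1.08e-05). In all 3 every beta library was above every non-beta library.

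Ffar1, a fatty acid receptor that raises insulin release, stood at 57.6, 61.3, 61.3 and 48.9 CPM in beta and 4.69, 5.92 and 5.50 CPM in non-beta libraries (10.7-fold; log2 fold change 3.41, SE 0.13, edgeR adjusted p = 7.30e-08). Also higher were the receptors Adra2a, for adrenaline, 12.2-fold, Galr1, for galanin, 23.3-fold, Adora1, for adenosine, 5.95-fold and Sstr3, for somatostatin, 4.73-fold. Gpr158 (36.4-fold), Ffar3 (16.7-fold), Chrm3, the muscarinic receptor for acetylcholine (6.11-fold), P2ry1, for ADP (4.78-fold), and Vipr1 (1.64-fold) completed the named ones. Their edgeR adjusted p lay between 3.00e-07 (Gpr158) and 0.000255 (Vipr1). P2ry1 and Adora1 share 23.1% and 20.1% of their exon bases with genes on the opposite strand, from which reads could not be separated if counting ignored strand. Of genes named below, the same holds for Tsr1 (32.3%), Tapbp (24.9%), Bnip3 (22.3%) and Tgm2 (21.8%).

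On the other side, Sstr2, the somatostatin receptor of alpha cells, stood at 0.0651, 0.0322, 0.142 and 0.323 CPM in beta and 24.6, 24.9 and 22.0 CPM in non-beta libraries (log2 fold change −7.33, SE 0.35, edgeR adjusted p = 2.20e-07). Avpr1b, a vasopressin receptor, had 0.0326, 0.161, 0.0712 and 0 CPM in beta and 15.9, 14.4 and 15.9 CPM in non-beta libraries (log2 fold change −7.82, SE 0.38, edgeR adjusted p = 2.40e-07). Both were close to 0 in each beta library. Without beta replicate 4 the log2 fold change of Sstr2 was −8.19, and without beta replicate 2 that of Avpr1b was −8.73. Cckar, the cholecystokinin receptor, had no count in beta cells and was at least 46.0-fold lower. Adora2a, another adenosine receptor, was 4.30-fold lower, opposite to Adora1. Ffar2 (38.0 ± 8.64 CPM in beta cells and 38.6 ± 7.70 CPM in non-beta cells) and Casr, the calcium-sensing receptor, did not pass the test (edgeR adjusted p = 0.935 and 0.813).

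Of 29 ion channel genes 11 were higher and 11 lower (37.9% each, against 24.8% and 28.6% of all genes tested), with a median log2 fold change of 0.19. Kcnma1, the large-conductance calcium-activated potassium channel, stood at 41.1, 41.8, 40.7 and 39.5 CPM in beta and 17.4, 18.2 and 18.2 CPM in non-beta libraries (2.27-fold; log2 fold change 1.19, SE 0.08, edgeR adjusted p = 2.03e-06). Kcnk3, a leak potassium channel, had 2.21, 3.31, 3.13 and 2.76 CPM in beta and 166, 147 and 202 CPM in non-beta libraries (60.2-fold lower; log2 fold change −5.91, SE 0.16, edgeR adjusted p = 2.60e-08). The fractions did not overlap in either. Kcnj3, a subunit of G protein-gated potassium channels, had no count in beta cells and 6.63, 6.53 and 3.88 CPM in non-beta libraries, at least 235-fold lower. However, 31.1% of the exon bases of Kcnj3 overlap a gene on the opposite strand, so its count is uncertain. The T-type calcium channel gene Cacna1h was 33.9-fold lower, and sodium channel genes were lower where they differed: Scn3b 12.6-fold, Scn3a 3.79-fold, and Scn2b, with no count in beta cells, at least 58.6-fold. Kcnn4 (−3.18), Cacng4 (−3.73) and Kcnq1 (−2.63) were lower on the log2 scale. Kcnk16, a beta-cell leak channel, was 1.22-fold higher (edgeR adjusted p = 0.0146, or 0.0703 without non-beta replicate 2). Kcnh6 and Kcnmb2 did not pass (edgeR adjusted p = 0.142 and 0.233); Kcnh6 did without non-beta replicate 4 (0.0109) and Kcnmb2 without non-beta replicate 3 (0.0278).

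Of 21 amino acid carriers 5 were higher (23.8%, near the 24.8% of all genes tested) and 8 lower (38.1%, against 28.6% of all genes), with a median log2 fold change of 0.00. Those lower included Slc38a5, an alpha-cell glutamine carrier, at 1.79, 1.35, 2.03 and 3.96 CPM in beta and 40.6, 49.7 and 52.9 CPM in non-beta libraries (log2 fold change −4.37, SE 0.30, edgeR adjusted p = 1.85e-06). Slc7a3 was 19.2-fold, Slc7a7 10.2-fold and Slc1a5 5.85-fold lower, and Slc38a1 had 3 counts in the beta libraries together (ratio 139, interval 47.2 to 677). Higher were Slc43a2 (2.22-fold), Slc7a5 (2.05-fold) and Slc7a2, given above. Slc7a11, the cystine carrier that supplies glutathione synthesis, was lower, at 1.77 ± 0.423 CPM in beta cells and 5.42 ± 1.62 CPM in non-beta cells (log2 fold change −1.61, SE 0.27, edgeR adjusted p = 0.000688). Slc38a4, Slc3a2 and Slc7a8 did not pass the test (edgeR adjusted p = 0.999, 0.210 and 0.672), though Slc7a8 did without non-beta replicate 3 (0.0112).

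Enzymes that make and break down GABA, dopamine and serotonin were higher in beta cells in 6 of 9 cases (66.7%, against 24.8% of all genes tested). None was lower (against 28.6%), or 1 without non-beta replicate 4, and the median log2 fold change was 1.85. Gad1, which makes GABA, stood at 93.2, 105, 101 and 105 CPM in beta and 1.91, 2.15 and 1.95 CPM in non-beta libraries, 50.3-fold apart (log2 fold change 5.65, SE 0.11, edgeR adjusted p = 8.50e-09). Ddc, which makes dopamine and serotonin from their amino acid precursors, had 433, 407, 364 and 321 CPM in beta and 40.9, 53.3 and 29.1 CPM in non-beta libraries (9.27-fold; log2 fold change 3.21, SE 0.21, edgeR adjusted p = 1.33e-06). Maob, a monoamine oxidase, averaged 299 ± 11.2 CPM in beta cells and 42.9 ± 6.28 CPM in non-beta cells (6.97-fold; log2 fold change 2.80, SE 0.12, edgeR adjusted p = 1.04e-07). All 3 were free of overlap between fractions. Th, tyrosine hydroxylase, was 3.62-fold and Slc18a1, a vesicular monoamine carrier, 3.71-fold higher. Gad2, the other GABA-making enzyme, and Tph1, which makes serotonin, were near 0 in every library, with at most 0.270 CPM of Gad2 and 0.232 CPM of Tph1, and were not tested. Tph2 was low and did not pass (2.67 ± 0.781 CPM in beta cells and 1.59 ± 0.895 CPM in non-beta cells; edgeR adjusted p = 0.119, or 0.00723 without non-beta replicate 3).

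The genes known as disallowed in beta cells were lower in beta cells in 18 of 19 tested cases (94.7%, against 28.6% of all genes tested), each by at least 2-fold. Their median log2 fold change was −5.07, or −4.77 with the genes at 0 counts set to their bounds. It was −5.71 without beta replicate 4, −5.73 with no filter and −5.735 with all 13 libraries in 1 fit. Fcgrt, a receptor for immunoglobulin, had no count in the 4 beta libraries and 17.0, 10.5 and 18.3 CPM in the non-beta libraries, at least 630.2-fold lower. Zfp36l1, an RNA-binding protein, had 1 count in beta cells (ratio 1570, interval 282 to 62200), but 55.9% of its exon bases overlap a gene on the other strand. Slc16a1, the lactate and pyruvate carrier MCT1, stood at 0.293, 0.129, 0.748 and 0.733 CPM in beta and 9.18, 7.90 and 11.7 CPM in non-beta libraries (20.0-fold lower; log2 fold change −4.32, SE 0.41, edgeR adjusted p = 1.53e-05). Hk1, the hexokinase with high affinity for glucose, had 0.130, 0.225, 0.712 and 0.440 CPM in beta and 33.5, 23.5 and 81.9 CPM in non-beta libraries (123-fold lower; log2 fold change −6.95, SE 0.56, edgeR adjusted p = 5.29e-06). Both were low in every beta library, without overlap, and without non-beta replicate 4 the log2 fold change of Hk1 was −6.25.

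Ldha, lactate dehydrogenase A, was also lower but was not evenly low. It stood at 0.260, 4.79, 10.04 and 31.6 CPM in beta libraries and at 162, 130.1 and 489 CPM in non-beta libraries (log2 fold change −4.47, SE 0.98, edgeR adjusted p = 0.00353). Replicate 4 was the highest in both fractions, and the highest beta library stayed under the lowest non-beta library. The log2 fold change of Ldha was −5.71 without beta replicate 4 and −3.63 without non-beta replicate 4. Oat (18.7-fold), Tgm2 (10.4-fold), Igfbp4 (33.5-fold) and Mylk (85.5-fold) were lower as well. Mgst1 had 1 count in beta cells (ratio 485, interval 86.6 to 19200) and Maf none (at least 27.2-fold lower). Cat, catalase, differed least among the lower ones, at 14.2 ± 1.61 CPM in beta cells and 29.0 ± 4.33 CPM in non-beta cells (log2 fold change −1.03, SE 0.13, edgeR adjusted p = 0.000137). C1qbp did not pass the test (55.4 ± 5.41 CPM in beta cells and 50.7 ± 1.28 CPM in non-beta cells; edgeR adjusted p = 0.279). Markers of vessel, immune and exocrine cells, given further on, were also lower in beta cells, and their part in these values was not tested.

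In glycolysis 6 of 23 genes were higher (26.1%) and 5 lower (21.7%), near the 24.8% and 28.6% of all genes tested, with a median log2 fold change of 0.33. Higher in beta cells were Eno2, at 125 ± 3.95 CPM in beta cells and 47.3 ± 8.60 CPM in non-beta cells (log2 fold change 1.40, SE 0.12, edgeR adjusted p = 9.61e-06), and Pfkm (1.93-fold; edgeR adjusted p = 1.44e-05). Lower were Hk1, Hk2 (−4.43 on the log2 scale, or −5.22 without beta replicate 4), Hk3 (−3.17), Ldha and Slc16a3, the lactate exporter MCT4. Slc16a3 had 0.423, 1.70, 1.99 and 8.62 CPM in beta and 18.3, 12.2 and 79.1 CPM in non-beta libraries (log2 fold change −3.50, SE 0.87, edgeR adjusted p = 0.00698), again highest in replicate 4 of each fraction. Its log2 fold change was −4.74 without beta replicate 4 and −2.24 without non-beta replicate 4. Most enzymes of the trunk of the pathway did not pass the test, and their libraries overlapped. Gapdh stood at 669, 723, 774 and 1066 CPM in beta and 480.1, 437 and 805 CPM in non-beta libraries (log2 fold change 0.49, SE 0.23, edgeR adjusted p = 0.0973). Pfkl, the liver-type phosphofructokinase, had 145, 261, 259.8 and 482 CPM in beta and 169.9, 159.5 and 394 CPM in non-beta libraries (log2 fold change 0.25, SE 0.41, edgeR adjusted p = 0.637). Aldoa, Pkm, Tpi1, Gpi1, Eno1 and Pgk1 likewise did not pass (edgeR adjusted p 0.0789 to 0.633). With no filter on low counts the number of higher members was 10. With the replicate number as a block it was 15, though the labels name no pairs. Gapdh, Pfkl, Aldoa, Pkm, Tpi1, Gpi1, Eno1 and Pgk1 were then among the higher genes. Without non-beta replicate 4 the number of higher members was 12 and the median log2 fold change 0.64. Gapdh (0.00252), Aldoa (0.00739), Pkm (0.0093), Tpi1 (0.0448) and Gpi1 (0.0486) then passed as higher by edgeR adjusted p, and Aldoa did so without beta replicate 1 too (0.0465).

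In the citric acid cycle and the reactions that fill it, 10 of 29 genes were higher (34.5%, against 24.8% of all genes tested) and 2 lower (6.90%, against 28.6%), with a median log2 fold change of 0.12 (0.25 without non-beta replicate 3). Pcx, given above, had the largest difference. Fh1, fumarase, stood at 240.2, 202, 217 and 227 CPM in beta and 84.4, 88.1 and 74.7 CPM in non-beta libraries (2.69-fold; log2 fold change 1.43, SE 0.10, edgeR adjusted p = 1.74e-06). Idh2, the mitochondrial NADP-dependent isocitrate dehydrogenase, averaged 309 ± 18.2 CPM in beta cells and 127 ± 9.91 CPM in non-beta cells (log2 fold change 1.28, SE 0.09, edgeR adjusted p = 2.24e-06). Mdh1 was 1.69-fold and Got2 1.41-fold higher. Glud1, glutamate dehydrogenase, was lower, at 106, 98.5, 109.8 and 103 CPM in beta and 189, 187 and 159 CPM in non-beta libraries (log2 fold change −0.77, SE 0.09, edgeR adjusted p = 5.69e-05). Cs, citrate synthase, was lower by a small margin (log2 fold change −0.21, edgeR adjusted p = 0.0497), and that call was lost whenever any library other than non-beta replicate 4 was left out (edgeR adjusted p 0.0670 to 0.133). The list then had 1 lower gene without any 1 of the beta libraries or without non-beta replicate 2, and also with no filter, with hormone genes left out of library sizes and with all 13 libraries in 1 fit. Mdh2, Pdhb, Dld, Sucla2 and Sdha did not pass the test (edgeR adjusted p 0.104 to 0.991). Sdha passed without non-beta replicate 3 (0.0354) and Mdh2 without non-beta replicate 4 (0.0277).

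**Figure D4:**
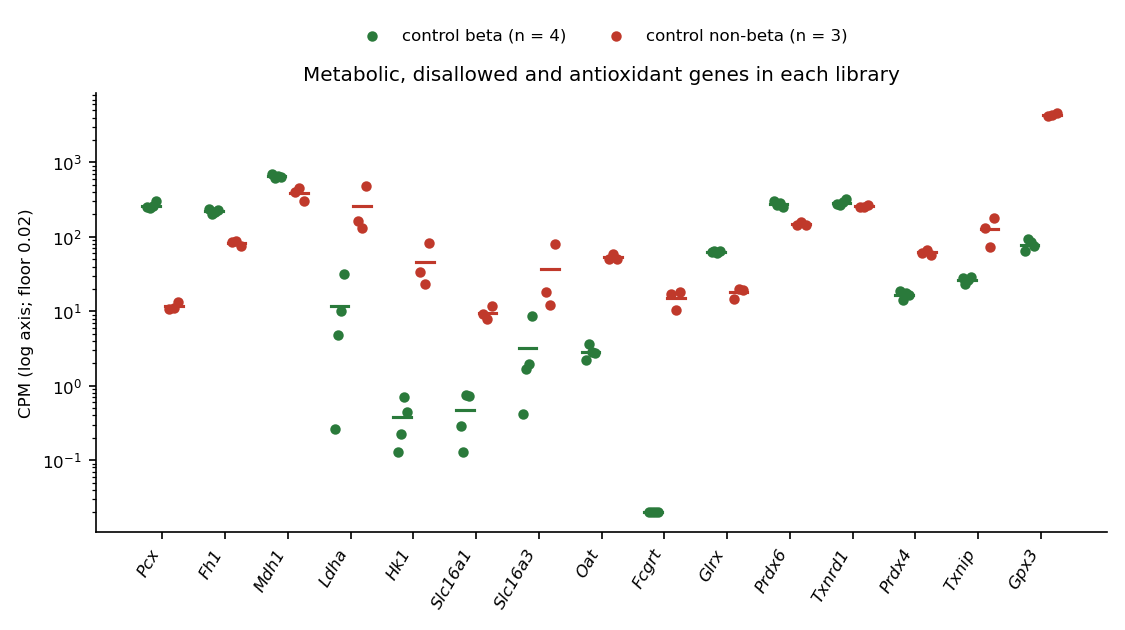
CPM of 15 metabolic, disallowed and antioxidant genes on a log axis, with each library as a point and the mean as a bar, control beta cells (n = 4) left of control non-beta cells (n = 3). Values below 0.02 CPM are drawn at 0.02, which holds for all 4 beta libraries of Fcgrt, and Ldha shows the widest spread among beta libraries.

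Antioxidant genes showed no single direction, with 7 of 33 higher (21.2%, against 24.8% of all genes tested) and 13 lower (39.4%, against 28.6%) and a median log2 fold change of −0.06. Gpx3, the glutathione peroxidase that is secreted, stood at 64.5, 92.9, 84.2 and 74.7 CPM in beta and at 4169, 4368 and 4554 CPM in non-beta libraries (55.2-fold lower; log2 fold change −5.79, SE 0.15, edgeR adjusted p = 2.17e-08). It was among the 10 most abundant transcripts per kilobase of the non-beta fraction. Prdx4, the peroxiredoxin of the endoplasmic reticulum, had 18.8, 14.02, 17.9 and 16.6 CPM in beta and 60.8, 67.0 and 57.5 CPM in non-beta libraries (3.68-fold lower; log2 fold change −1.88, SE 0.11, edgeR adjusted p = 8.76e-07). Gpx8, a peroxidase of the same compartment, had 2 counts in beta cells (ratio 450, interval 124 to 3720), and Sod3, the secreted superoxide dismutase, 3 (ratio 326, interval 111 to 1580).

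Txnip, which binds and inhibits thioredoxin, was lower, at 28.2, 23.2, 26.1 and 28.9 CPM in beta and 133, 74.3 and 180.2 CPM in non-beta libraries (log2 fold change −2.28, SE 0.24, edgeR adjusted p = 3.85e-05). Txn1, thioredoxin itself, was 1.67-fold, Prdx1 1.54-fold and Gclc, the catalytic subunit for glutathione synthesis, 1.98-fold lower. Glrx, glutaredoxin, stood at 62.2, 65.3, 60.6 and 65.4 CPM in beta and 14.8, 19.7 and 19.5 CPM in non-beta libraries (3.53-fold higher; log2 fold change 1.82, SE 0.12, edgeR adjusted p = 1.14e-06). Prdx6 was 1.85-fold and Gpx1 1.41-fold higher (log2 fold change 0.89, SE 0.09, edgeR adjusted p = 3.14e-05 for Prdx6; log2 fold change 0.50, SE 0.09, edgeR adjusted p = 0.00124 for Gpx1). For these genes no beta library lay within the non-beta range. Prdx2, Gpx4, Glrx2, Sod1 and Gpx2 did not pass the test (edgeR adjusted p = 0.807, 0.947, 0.735, 0.0934 and 0.0636). Gpx2 passed without non-beta replicate 3 (log2 fold change 0.81, edgeR adjusted p = 0.00874).

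Genes linked to progenitors or to loss of beta-cell identity were lower in beta cells in all 10 tested cases, against 28.6% of all genes tested. Their median log2 fold change was −2.05. Neurog3, the factor that starts the endocrine program, stood at 1.30, 1.54, 1.32 and 0.733 CPM in beta and 60.4, 59.2 and 26.7 CPM in non-beta libraries (log2 fold change −5.32, SE 0.34, edgeR adjusted p = 1.08e-06). Fev, a factor downstream of it, had 0.684, 0.643, 1.25 and 0.968 CPM in beta and 52.6, 42.5 and 53.6 CPM in non-beta libraries (log2 fold change −5.81, SE 0.20, edgeR adjusted p = 4.60e-08). Neither overlapped, and both were close to 1 CPM in beta cells. Cd81, a surface tetraspanin, averaged 138 ± 33.0 CPM in beta cells and 519 ± 79.7 CPM in non-beta cells (log2 fold change −1.91, SE 0.20, edgeR adjusted p = 2.81e-05). Hes1 was 4.59-fold, Myc 1.95-fold, Sox4 3.60-fold and Aldh1a3, an enzyme used as a sign of lost identity, 3.75-fold lower. Sox9, a factor of progenitors and duct cells, had 2 counts in the beta libraries together (ratio 454, interval 125 to 3760). For Sox4, 54.6% of the exon bases overlap a gene on the other strand. Markers of vessel, stromal, immune and duct cells, given next, were mostly lower too, and their part in these values was not tested.

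Most markers of endothelial, stromal, acinar and immune cells were lower in beta cells, while some immune and duct markers were not. The 19 endothelial genes were all lower, against 28.6% of all genes tested, with a median log2 fold change of −8.32. They summed to 13.2 to 23.7 CPM in beta libraries and 1580 to 2317 CPM in non-beta libraries. Without beta replicate 3, which had the highest sum of that fraction, the median was −9.90. Plvap, a protein of vessel fenestrae, stood at 0.423, 0.450, 1.82 and 0.469 CPM in beta and 730.2, 546 and 526 CPM in non-beta libraries (log2 fold change −9.61, SE 0.41, edgeR adjusted p = 1.21e-07, or −10.37 on the log2 scale without beta replicate 3). Kdr and Flt1, receptors of vascular growth factor, and Pecam1, an adhesion protein, had log2 fold changes of −9.58, −9.21 and −9.07, which without beta replicate 3 were −10.42, −10.24 and −9.82. Erg, with no count in beta cells, was at least 325-fold lower. Egfl7 and Esam differed less (−5.48 and −4.05 on the log2 scale), and Esam kept 8.97 ± 1.25 CPM in beta cells. All 12 tested genes of stromal cells and pericytes were lower, again against 28.6% of all genes tested (median −8.63, −8.15 with genes at 0 counts at their bounds, or −7.95 without non-beta replicate 3). Among them was Vim at 0.120 ± 0.137 CPM in beta cells and 67.5 ± 16.7 CPM in non-beta cells (log2 fold change −9.17, SE 0.38, edgeR adjusted p = 1.04e-07, or −10.24 on the log2 scale without beta replicate 3). Des and Lum had no count in beta cells.

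Macrophage and other leukocyte genes were lower in 17 of 20 tested cases (85%, against 28.6% of all genes tested) and higher in 1 (5%, against 24.8%). Their median log2 fold change was −7.60, or −7.13 with genes at 0 counts at their bounds. Their sum was 131 to 153 CPM in beta libraries and 1172 to 1682 CPM in non-beta libraries. Lyz2, a lysozyme of macrophages, had 0.0651, 0.161, 0.498 and 0.0880 CPM in beta and 70.2, 72.4 and 61.3 CPM in non-beta libraries (log2 fold change −8.42, SE 0.33, edgeR adjusted p = 7.55e-08, or −9.30 on the log2 scale without beta replicate 3). H2-Ab1, an MHC class II chain, and Cd74, its invariant chain, were 96.5- and 56.9-fold lower, and Cx3cr1, with no count in beta cells, at least 453-fold. The complement genes did not move together. C1qb stood at 0.0326, 0.129, 0.427 and 0.0293 CPM in beta and 82.5, 79.4 and 78.8 CPM in non-beta libraries (log2 fold change −9.07, SE 0.36, edgeR adjusted p = 8.15e-08, or −10.24 on the log2 scale without beta replicate 3). C1qa instead stood at 53.8, 71.3, 46.2 and 53.3 CPM in beta and 66.1, 64.5 and 49.3 CPM in non-beta libraries and did not pass the test (log2 fold change −0.09, SE 0.16, edgeR adjusted p = 0.641). C1qc was near 0 in beta cells like C1qb (−10.11 on the log2 scale, or −10.96 without beta replicate 3). None of the exon bases of C1qa are shared with another annotated gene. Cd68, a lysosomal protein, did not pass either (edgeR adjusted p = 0.197), but was lower without beta replicate 4 (edgeR adjusted p = 0.0305). Cd79a, known from B cells, was higher in beta cells at a low level, 2.21, 2.77, 2.42 and 1.44 CPM in beta and 0.250, 0.174 and 0.150 CPM in non-beta libraries (log2 fold change 3.49, SE 0.35, edgeR adjusted p = 2.58e-05). Ms4a1, which also marks B cells, had no count in any beta library.

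All 14 acinar genes tested were lower, against 28.6% of all genes tested, with a median log2 fold change of −9.44, or −8.77 without non-beta replicate 4. Summed, the 16 genes made 6.19 to 15.8 CPM in beta libraries and 4339, 4764 and 11974 CPM in non-beta replicates 2, 3 and 4. Pnlip, pancreatic lipase, stood at 0.488, 0.997, 1.60 and 1.35 CPM in beta and 530.4, 586 and 1648 CPM in non-beta libraries (log2 fold change −9.70, SE 0.55, edgeR adjusted p = 5.51e-07, or −8.98 on the log2 scale without non-beta replicate 4). Cel, Cpb1 and Cela2a were 769-, 799- and 539.7-fold lower. Try4, Try5 and Prss2 belong to a family of near-identical trypsinogens, whose reads may be split or left out, and their values are uncertain. Of 8 tested duct genes 5 were lower (62.5%, against 28.6% of all genes tested) and 2 higher (25%, near the 24.8% of all genes). Their median log2 fold change was −2.30. Without beta replicate 2 or 4 or non-beta replicate 3 only 1 was higher, and the median was −2.96 without non-beta replicate 3, −2.97 with no filter and −3.37 with all 13 libraries in 1 fit. Spp1, osteopontin, averaged 30.4 ± 14.1 CPM in beta cells and 1747 ± 774 CPM in non-beta cells (log2 fold change −5.84, SE 0.45, edgeR adjusted p = 4.03e-06). Krt7, a keratin of duct cells, went the other way, with 912, 905, 867 and 927 CPM in beta and 339.9, 422 and 323 CPM in non-beta libraries (log2 fold change 1.32, SE 0.11, edgeR adjusted p = 6.53e-06). Muc1 and Tspan8 were lower (−3.38 and −3.43 on the log2 scale). Schwann-cell genes were lower in 6 of 7 cases (85.7%, against 28.6% of all genes tested) at low levels.

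Genes of antigen presentation and of the cell cycle passed the test in smaller shares than all genes, on short lists. Of 11 genes of the MHC class I pathway 2 were higher (18.2%, against 24.8% of all genes tested) and none lower (against 28.6%). The median log2 fold change was −0.21. H2-K1 averaged 1292 ± 128 CPM in beta cells and 1265 ± 49.3 CPM in non-beta cells and H2-D1 1842 ± 194 CPM in beta cells and 2109 ± 369.6 CPM in non-beta cells (edgeR adjusted p = 0.823 and 0.260). The genes that passed were Tapbp and Psmb9 (0.32 and 0.50 on the log2 scale). Both calls were lost without non-beta replicate 2 (edgeR adjusted p 0.0959 and 0.0957) and without beta replicate 4 (0.0765 and 0.0647). Tapbp also lost its call without beta replicate 3 (0.0555) or non-beta replicate 4 (0.0536), and Psmb9 without non-beta replicate 3 (0.0650). With 1 library left out, up to 2 members of this list were lower. Of 19 cell cycle genes 3 were higher (15.8%, against 24.8% of all genes tested) and 4 lower (21.1%, against 28.6%). The median was −0.27, or 0.08 without non-beta replicate 4. Of the 19 genes, 13 averaged under 20 CPM in both fractions, which held for 10666 of the 19014 genes tested. Ccnd2, a cyclin that mouse beta cells need to grow in number, stood at 697, 611, 599 and 693 CPM in beta and 483, 465 and 522 CPM in non-beta libraries (log2 fold change 0.41, SE 0.09, edgeR adjusted p = 0.00485). Pcna and Mcm2, which act in DNA replication, were lower (log2 fold change −0.69, SE 0.09, edgeR adjusted p = 0.000152 for Pcna; log2 fold change −0.71, SE 0.17, edgeR adjusted p = 0.00534 for Mcm2). Mki67, found only in dividing cells, was low in both fractions, 0.619, 0.450, 0.0356 and 2.32 CPM in beta and 0.277, 0.232 and 1.05 CPM in non-beta libraries (log2 fold change 0.75, SE 0.92, edgeR adjusted p = 0.523).

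Of the genes picked for a small difference (at least 50 CPM in both fractions, log2 fold change between −0.1 and 0.1, smallest standard errors), Nadk stood at 94.7, 95.7, 98.7 and 94.5 CPM in beta and 95.9, 93.6 and 95.6 CPM in non-beta libraries (log2 fold change 0.01, SE 0.07). Ctbp1, Ranbp3, Rhbdd2, Hdac3, Ubtf, Tsr1 and Dnaja2 had log2 fold changes of −0.09 to 0.05. Per kilobase of gene length, the most abundant transcripts of the beta fraction were Ins2, Iapp and Ins1 (170985, 33748 and 21181 CPM per kb), with Chga (3651) next. In the non-beta fraction Gcg (115313 CPM per kb), Ppy (74581), Pyy (24496) and Sst (15734) led. The annotated genes Gm28902, Gm37376 and Gm10252, also among the most abundant, share exon bases with Resp18 (18.6%), Malat1 (all of them) and other genes such as Ftl1 (42.7%), so their counts are uncertain.

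Within a fraction most genes were steady, and those that were not were often highest in replicate 4. Among 7435 genes of at least 20 CPM in beta cells the median ratio of the highest to the lowest beta library was 1.16, and 55 genes exceeded 2. In 36 of the 55 replicate 4 was the highest. Among 7487 such genes in non-beta cells the median ratio was 1.23 and 418 exceeded 2, with replicate 4 the highest in 362. Some of these were steady in beta cells. Fbxw8 had 15.7, 11.3 and 64.4 CPM in non-beta libraries and 63.5, 54.7, 63.3 and 63 CPM in beta libraries, though 33.4% of its exon bases overlap a gene on the opposite strand. Others peaked elsewhere, such as Lcn2 in beta replicate 3 and Lrg1 in non-beta replicate 3. The heat shock genes Hspa1a and Hspa1b varied most in both fractions. Hspa1a had 2.38, 10.6, 23.3 and 109 CPM in beta replicates 1 to 4 and 7.96, 3.25 and 51.8 CPM in non-beta replicates 2 to 4. The fractions overlapped in it. Slc2a1, Pfkl, Bnip3, Gpi1, Eno1 and Tpi1, which cells raise when oxygen is short, were highest in replicate 4 of both fractions. So were the interferon-induced genes Ifit3 (44.2, 51.8, 37.8 and 142 CPM in beta, 52.0, 56.0 and 188 CPM in non-beta libraries) and Rsad2. These genes were chosen because of their spread, after their values were seen.

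**Figure D5:**
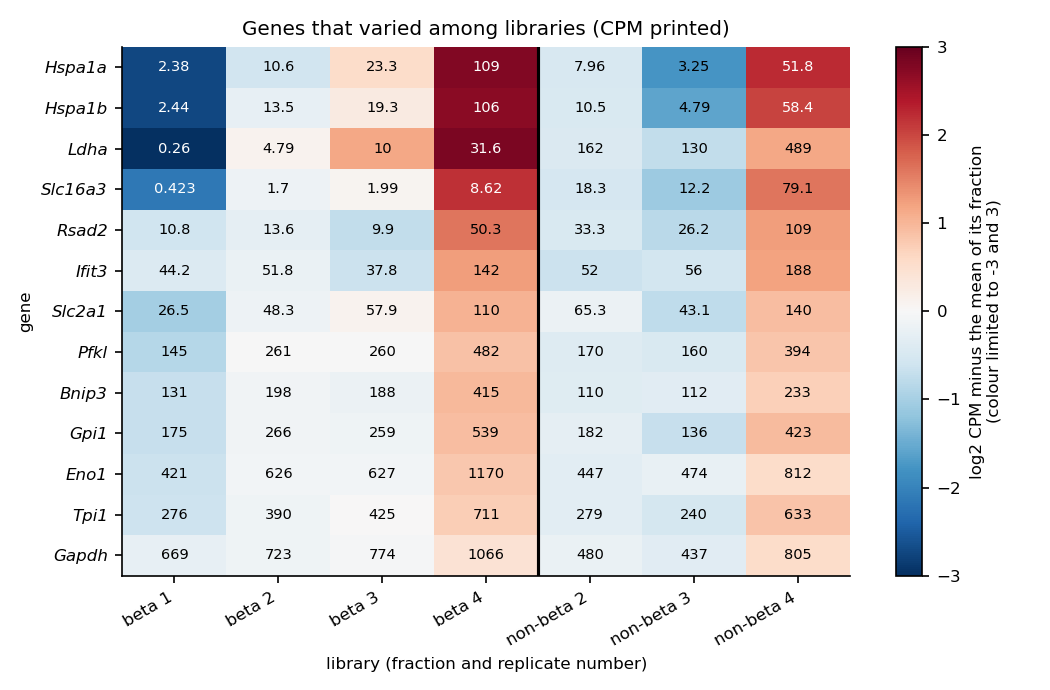
Genes that varied among libraries: each cell prints the CPM of a gene (rows) in a library (columns, control beta replicates 1 to 4 left of control non-beta replicates 2 to 4), coloured by its log2 CPM minus the mean of its fraction. Replicate 4 is the highest library of both fractions in every gene shown, and varying genes that peak in another replicate, such as Lcn2 and Lrg1, are not shown.

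The authors' deposited table of the same comparison lists 11735 genes with log2 fold changes and false discovery rates. At a false discovery rate below 0.05, 3039 genes of the authors' deposited table were higher and 2971 lower in beta cells, and 949 were marked up and 915 down. All 11735 genes of the authors' deposited table were also tested here, and 11199 had the same sign in both. Of the genes past the rate in the authors' deposited table, 5708 were also called here in the same direction. The log2 fold changes of the authors' deposited table and those given above differed by at most 0.08.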

How the data were processed

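The data were gene counts of RNA sequencing from fractions of sorted islet cells. Per the labels' protocols, RNA was amplified with a SMART-based kit for very low input and sequenced as read pairs. FastQC, STAR, edgeR and the build GRCm38.p6 are named in the submitters' processing notes; the counting program, its strand setting and the annotation are not given in the sources used here. The deposited table holds raw counts per gene, not normalized by the authors. The authors' deposited table of the comparison holds log2 fold changes and p-values with false discovery rates, which were used only for the side-by-side counts at the end.

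The members and gene lists were chosen with earlier results of these data known. Genes were kept by filterByExpr of edgeR 4.0.16 (minimum count 10) in the 7 control libraries, scaled by TMM, and tested with edgeR's quasi-likelihood test across all kept genes, with Benjamini-Hochberg adjustment at 0.05 (R 4.3.3). Only the 7 libraries entered the fit, with no covariate. CPM were computed from counts and TMM-scaled library sizes. A fold against a gene with no count in beta cells was computed against 3 counts over the 4 libraries, and genes with 1 to 3 counts there were given as a ratio with an exact interval. Intervals cover counting error only, since the reads carry no molecular identifiers. Named genes were the main hormones and Txnrd1, the 15 genes with the largest and the 15 with the smallest log2 fold change among those that passed, had at least 20 CPM in the higher fraction and did not overlap, members of each list picked by smallest adjusted p, the largest difference, the highest level, the opposite sign or the smallest difference, the 10 most abundant per kilobase of each fraction, and 8 flat genes of at least 50 CPM; others were chosen after their values were seen. The p-values measure the spread between these samples, which may be technical, since separate animals are not stated.

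Alternatives were DESeq2 1.42.0, DESeq2-type (RLE) size factors, no filter, a stricter filter, hormone genes left out of library sizes, all 13 libraries in 1 fit, a 2-fold threshold within the test, the replicate number as a block, and each library left out. On simulated counts of 18862 genes for the control comparison, 55, 73 and 72 genes were changed 1.5-fold, 2-fold and 4-fold. The test recovered 14.5%, 57.5% and 83.3% of them, with no wrong sign. It also called 14 unchanged genes (11.3% of the calls). In the data 53.5% of genes were called, a far larger share than was changed in the simulation. These rates therefore need not hold for the comparison itself. Of 55421 gene identifiers, 54673 matched the GENCODE annotation used for gene positions and overlaps. Promoters came from RefSeq. Some genes of the lists and rules are counted but not reported by name here.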

Additional observations from a re-analysis of the deposited data

Results flagged for a closer look

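Each gene named in the report was screened for a single control beta library that stood apart from the other 3, by the gap to the nearest library as a share of the whole range. Genes whose share passed Dixon's 95% critical value for 4 libraries were marked, which chance gives in about 1 of 20 genes; 28 of 321 genes (8.72%) were marked. The non-beta fraction has 3 libraries and was not screened.

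Genes of vessels, stroma and immune cells made up much of the list. Beta replicate 3 was high in Flt1 (share 0.969), Plvap (0.947), Cdh5 (0.894), Arhgdib (0.874), Kdr (0.861) and Pdgfrb (0.831), and also in Acot7 (0.844). The part of such cells in beta replicate 3 was not tested. Endothelial genes summed to 23.7 CPM in that library, against 13.2 to 16.4 CPM in the other beta libraries and 1580 to 2317 CPM in non-beta libraries.

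For genes with 1 or 2 counts over the beta libraries the share is that of a single library. It was 1 for Acta2 and Sox7 in beta replicate 1, Col1a1, Ngfr and Zfp36l1 in replicate 2, Mgst1 in replicate 3, and Cav1 and Gpx8 in replicate 4.

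Among genes with more counts, beta replicate 1 was high in Gm10252 (0.964), Kcnn4 (0.907), Pou3f4 (0.870), Calr (0.858) and Scg5 (0.832), and low in Cpa1 (0.841). Beta replicate 2 was high in Gpr158 (0.886) and low in Cd81 (0.914) and Cs (0.865). Beta replicate 4 was high in Top2a (0.896) and low in Sod3 (0.906), which had 3 counts in all, and in Sox4 (0.882).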

How the results depend on the processing

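Of 58 values of the 4 counts of genes, 57 stayed within 1.5 times the value reported. The exception was the count of genes at least 2-fold higher in beta cells, which was 1101 against 1891 when the test itself asked for more than 2-fold. Leaving out 1 library gave 3907 to 5210 higher and 4809 to 5670 lower genes, and 1774 to 2293 higher and 3132 to 3387 lower by at least 2-fold. No scaling moved the median of all genes by more than 0.03 on the log2 scale in size (−0.0246 with DESeq2). The median log2 fold change of the cell cycle list, −0.27, changed sign to 0.081 without non-beta replicate 4 and was −0.49 without beta replicate 4. With no filter the median was −5.96 for delta-cell genes, 0.82 for receptors and 0.76 for GABA and monoamine genes, and with the stricter filter 2 Schwann-cell genes were lower (median −1.44). Of the values of named genes 4545 kept their direction and side of the threshold, 67 lost the call, 53 gained it and none reversed. The cause of these changes was not tested.

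Libraries with the same number deviated together by correlations of 0.076, 0.112 and 0.190 for replicates 2, 3 and 4 over all genes tested, and 0.155, 0.116 and 0.229 over 13221 genes with at least 700 counts. Each library correlated best with its own number, as a hint from the data. The labels name no shared animal or day, so the numbers were not taken as pairs. With the replicate block 4471 genes were higher and 5023 lower (1915 and 3153 by at least 2-fold). Gapdh, Aldoa, Pkm, Gpi1, Eno1, Tpi1, Pgk1 and Pfkl then passed as higher, with log2 fold changes of 0.61, 0.72, 0.53, 0.61, 0.47, 0.49, 0.40 and 0.54, and the number of glycolysis genes that were higher was 15 against 6.

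At the depth of these libraries, genes with a few counts in beta cells have wide intervals, and 279 of the tested genes had none there.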
